A study of Mus musculus with 16 samples.

Results

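Kinesins are motor proteins that hydrolyse ATP to move along microtubules or to take their ends apart. The 45 genes described here are the rows of the deposited table whose symbol is Kif followed by a digit, together with Kifc1, Kifc2, Kifc3 and Kifc5b, out of 47069 genes in all. By their known roles they divide into 12 mitotic kinesins and 33 others. The samples were bone marrow-derived macrophages (BMMs) from C57BL/6 mice of 8 to 10 weeks, harvested on day 7 of culture in L929-conditioned medium, primed overnight with IFNγ (10 ng/mL) and activated for 1 hr with Salmonella LPS (100 ng/mL) and IgG-opsonized ovalbumin (LPS/ICs). All libraries shared this priming and activation. The cells of 1 group received, overnight before activation, DAPT at 25 μM, a gamma-secretase inhibitor (GSI) that blocks the cleavage of Notch receptors and of other gamma-secretase substrates, and those of the other group received the vehicle DMSO at 0.01%. Each group had 2 replicates, and each replicate had 4 columns of counts, taken here as sequencing runs and summed to 1 library, which gave 4 libraries of 42694655 to 56932059 counts. Levels are given as CPM (counts scaled to a common library size). A count of 0 allows up to 3 counts, or 0.0527 to 0.0703 CPM of the totals before TMM scaling, for counting error only. Nothing in the labels says that the replicates came from separate animals or cultures, so the p-values measure the spread between these libraries, which may be technical.

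Dividing cells use kinesins to separate the spindle poles, to move and align chromosomes and to build the central spindle where the daughter cells are cut apart. Genes for these motors are transcribed mainly in G2 and M phase and are low in resting cells. Other kinesins work in resting cells too and carry vesicles, endosomes, lysosomes, mitochondria and mRNAs outward from the cell centre, and macrophages use them to position lysosomes and to deliver membrane and proteases to the surface. Most kinesins walk to the plus ends of microtubules, whereas those of the Kifc group walk to the minus ends and those of the Kif2 group remove tubulin from microtubule ends.

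All 12 mitotic kinesins were expressed in LPS/IC-activated BMMs and all 12 were lower under GSI, to between 27.4% (Kif20a) and 52.3% (Kif22) of their level under DMSO. The 33 others divided differently. Of these, 22 passed the filter on low counts, of which 10 fell, 1 (Kif1c) rose and 11 did not pass the test. The median log2 fold change, GSI against DMSO (the log2 change in what follows), was -1.30 over the 12 mitotic kinesins, -0.19 over the 22 tested others and 0.01 over all 13211 genes tested. Genes were called with edgeR's quasi-likelihood test and Benjamini-Hochberg adjustment over all 13211 genes at a false discovery rate (FDR) of 0.05, by which 21.9% of all tested genes were lower and 19.0% higher under GSI (40.8% in either direction). The change of every tested kinesin is plotted with its standard error (SE).

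**Figure D1:**
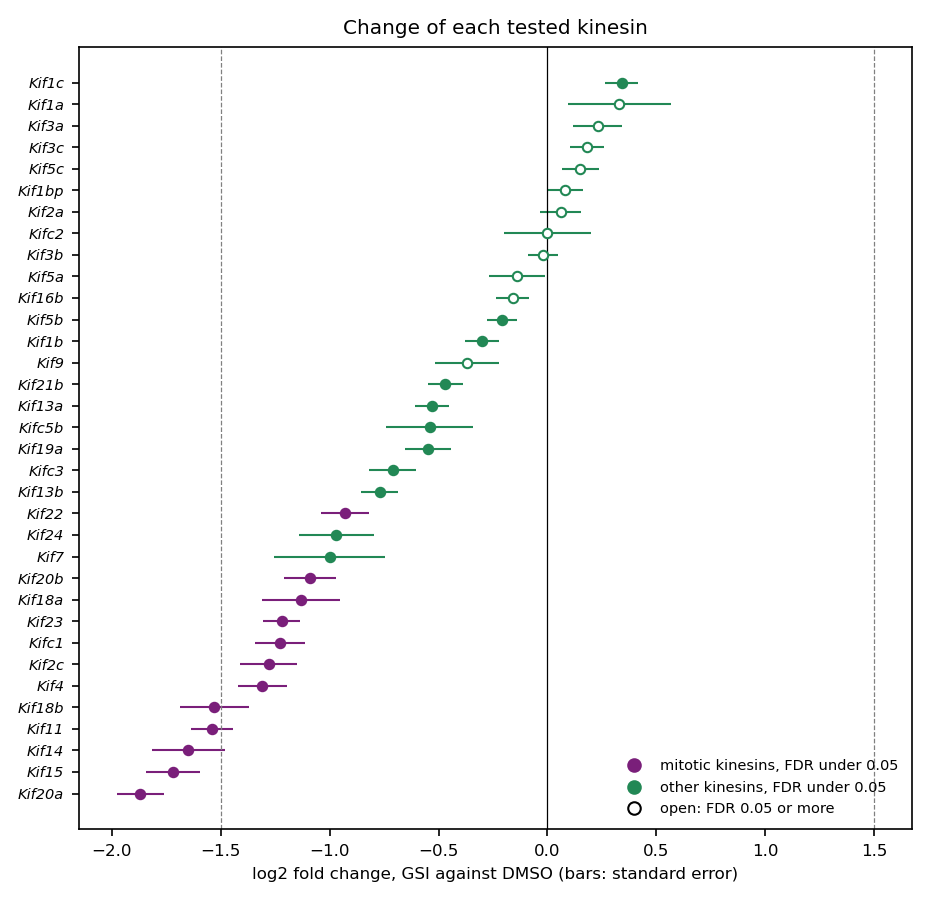
The x axis gives the log2 change of each of the 34 tested kinesin genes, GSI against DMSO, from edgeR (2 libraries per group), with bars for the standard error and dashed lines at -1.5 and 1.5. Filled points had an FDR under 0.05. The 12 mitotic kinesins lie between -1.87 and -0.93, and among the others Kif7 (-1.0) and Kif24 (-0.97) reach that range.

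The promoter windows of most mitotic kinesins held a short motif in common. In many genes of G2 and M phase the promoter carries a cell cycle genes homology region (CHR), a short element near the transcription start, with CCAAT boxes, the binding site of NF-Y, further upstream. Windows of 250 bases before to 50 bases after the transcription start were available from RefSeq (GRCm38.p6) for 35 of the 45 members and for 26 of the 34 tested ones, and were searched on both strands for CCAAT, for the CHR letters TTTGAA and TTCGAA, and for the E2F site TTCCCGCC. None of these motifs holds another, and TTCGAA reads the same on both strands. TTTGAA was found in 10 of the 11 mitotic kinesins with a window, against 2 of 15 tested others and 14.4% of the 9401 tested genes with a window (17.9% of all 32851 windows). Kif18a was the mitotic kinesin without a match, and Kif20a was not matched. CCAAT was found in 7 of the 11 mitotic kinesins, 6 of 15 tested others and 42.9% of tested genes, and CCAAT together with TTTGAA in 7 of 11, 1 of 15 and 7.08%. TTCCCGCC was in 0 of the 11 mitotic kinesins and in 4.79% of tested genes, and TTCGAA in 0 of 11 and in 2.51%. A match is a description of these letters and no evidence that a factor binds there. Over all tested genes with a window, the median log2 fold change was -0.03 for the 1351 genes with TTTGAA and 0.02 for the 8050 without. A match anywhere in the window thus went with little difference in the median.

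The sequences from position -90 to 20 around the start (to 25 for Kif4) are shown for 7 mitotic kinesins with TTTGAA beside the start. Those of Kif24, which had TTCGAA and fell, and of Kif1c and Kif3c, which had no match in this stretch and did not fall, are also shown. These examples do not stand for all the others. Kif13a and Kif7 fell with none of the motifs in their windows, and Kif1a had TTTGAA and was not called. Among the others with a window, TTTGAA was in 1 of 5 called lower and in 1 of 10 not called lower. Position 1 is the first transcribed base by the RefSeq start of the window, and position -1 is the base before it. That start can differ from the gene coordinates given below. The Kif4 stretch lies wholly inside those of its gene, which begin at 100625737. Each sequence is written 5′ to 3′ on the strand of its gene. Capitals mark the motif letters, so that CCAAT reads ATTGG and TTTGAA reads TTCAAA where the match is on the opposite strand. The stretches lie at chr19:37376292-37376401 (plus strand), chr7:127042401-127042510 (minus strand), chr9:122950991-122951100 (plus strand), chr17:33890614-33890723 (minus strand), chr11:102925105-102925214 (minus strand), chr9:61946780-61946889 (minus strand), chrX:100625975-100626089 (plus strand), chr4:41464829-41464938 (minus strand), chr11:70700458-70700567 (plus strand) and chr12:3365042-3365151 (plus strand) of GRCm38.
Kif11: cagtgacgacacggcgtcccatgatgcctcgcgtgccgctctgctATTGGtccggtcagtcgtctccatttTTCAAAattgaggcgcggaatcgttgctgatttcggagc
Kif22: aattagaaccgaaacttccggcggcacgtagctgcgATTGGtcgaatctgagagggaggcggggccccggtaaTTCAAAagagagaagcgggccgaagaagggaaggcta
Kif15: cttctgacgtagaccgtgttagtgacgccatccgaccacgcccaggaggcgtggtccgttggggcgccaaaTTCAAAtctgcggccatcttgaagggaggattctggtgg
Kifc1: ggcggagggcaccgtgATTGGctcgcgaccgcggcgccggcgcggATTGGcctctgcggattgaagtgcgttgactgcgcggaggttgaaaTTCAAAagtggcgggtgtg
Kif18b: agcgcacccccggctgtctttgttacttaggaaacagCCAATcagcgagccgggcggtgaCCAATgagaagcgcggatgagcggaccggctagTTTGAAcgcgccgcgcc
Kif23: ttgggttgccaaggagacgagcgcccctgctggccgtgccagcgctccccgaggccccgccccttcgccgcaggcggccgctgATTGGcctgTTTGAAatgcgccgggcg
Kif4: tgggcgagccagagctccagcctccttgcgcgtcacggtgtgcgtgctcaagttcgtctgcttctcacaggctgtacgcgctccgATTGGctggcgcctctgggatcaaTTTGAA
Kif24: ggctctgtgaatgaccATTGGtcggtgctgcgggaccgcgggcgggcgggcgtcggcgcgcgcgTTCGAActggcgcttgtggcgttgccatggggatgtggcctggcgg
Kif1c: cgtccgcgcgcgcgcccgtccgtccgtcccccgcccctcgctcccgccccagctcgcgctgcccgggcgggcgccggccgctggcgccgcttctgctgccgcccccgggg
Kif3c: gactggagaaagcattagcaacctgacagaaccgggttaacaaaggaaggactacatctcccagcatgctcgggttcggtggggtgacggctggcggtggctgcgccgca
In Kif11 an inverted CCAAT box began at -45 and the TTTGAA match at -19, in Kif22 they began at -54 and -17, and in Kifc1 at -45 and 2. In Kif18b boxes began at -53 and -30 with the TTTGAA match at 4. In 8 of the 11 mitotic kinesins a TTTGAA match began within 30 bases of the start, a distance chosen after the positions were seen, against 1 of 15 tested others (Kifc5b) and 2.54% of tested genes. The matches of Kif14 (-228) and Kif2c (-103) lay further upstream. The map of motif positions shows the windows of all 26 tested members that had them.

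**Figure D2:**
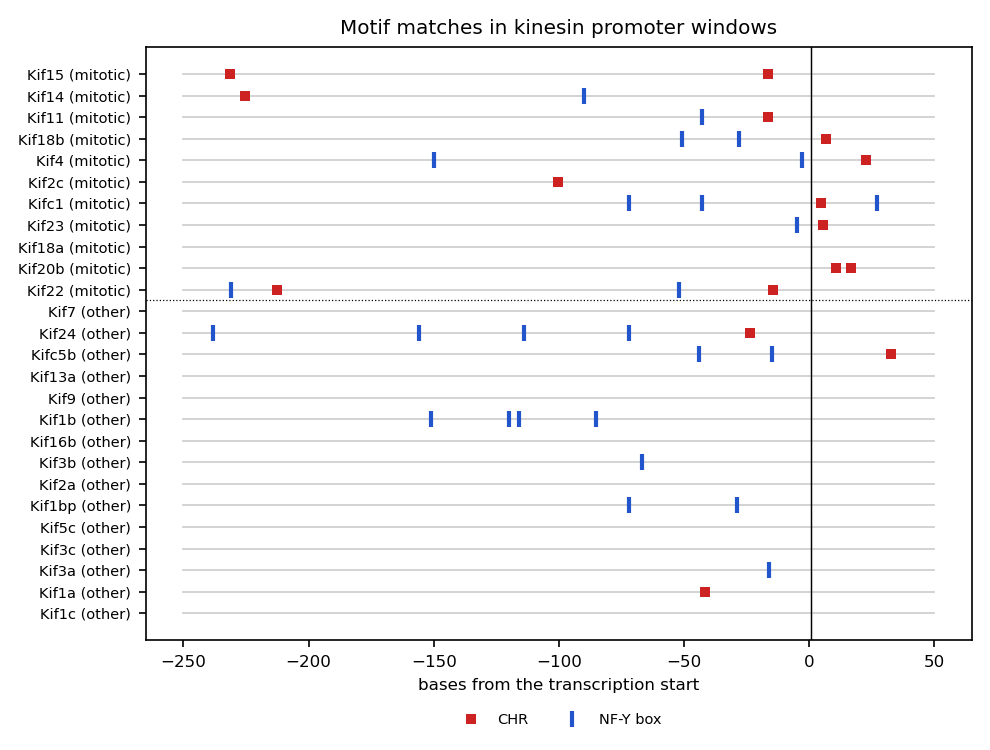
Each grey line is the RefSeq window of a tested kinesin, and the x axis gives the distance in bases from its transcription start (vertical line). Squares are matches to the CHR letters and bars are NF-Y boxes, and Kif1a, Kif1b, Kif2a and Kif9 have 2 windows drawn on their line. Squares lie within 30 bases of the start in 8 of 11 mitotic kinesins (above the dotted line) and near it in Kif24, Kif1a and Kifc5b of the others.

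To compare the motors that build the spindle, the values of Kif11, Kif15 and Kifc1 were examined first. Kif11 (ENSMUSG00000012443, chromosome 19, 37376403 to 37421859), which slides antiparallel microtubules apart and so separates the spindle poles, had 28.7 and 25.0 CPM in DMSO libraries and 8.65 and 9.76 CPM in GSI libraries. Its log2 change was -1.54 (SE = 0.098, FDR = 2.18e-10), a 2.91-fold lower level. Kif15 (ENSMUSG00000036768, chromosome 9, 122951046 to 123018733), which can hold the poles apart together with Kif11, had 13.4 and 11.1 CPM under DMSO and 3.83 and 3.56 CPM under GSI. Its log2 change was -1.72 (SE = 0.123, FDR = 1.08e-09). In each of these motors the lower DMSO library lay well above the higher GSI library. Kifc1 (ENSMUSG00000079553, chromosome 17, 33875659 to 33890661), a minus-end directed motor that focuses spindle poles, had 10.6 and 12 CPM under DMSO and 4.55 and 5.06 CPM under GSI, a log2 change of -1.23 (SE = 0.115, FDR = 4.18e-08). Per exon length, Kif11 was 3.16 and 3.33 times as abundant as Kif15 in DMSO libraries and 3.34 and 4.05 times as abundant in GSI libraries, a difference between groups that was not tested. The lower GSI ratio was close to the higher DMSO ratio.

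The 5 motors of chromosome arms and of microtubule plus ends had a median log2 change of -1.28, beside -1.54 for the 3 of spindle assembly. Kif22 (ENSMUSG00000030677, chromosome 7, 127027729 to 127042471), a chromokinesin that pushes chromosome arms toward the spindle equator, had 9.90 and 11 CPM under DMSO and 5.25 and 5.69 CPM under GSI. With a log2 change of -0.93 (SE = 0.111, FDR = 1.13e-06) it changed least among the 12. Kif4 (ENSMUSG00000034311, chromosome X, 100625737 to 100727214), the other chromokinesin, had 11.2 and 12.7 CPM under DMSO and 4.88 and 4.76 CPM under GSI, a log2 change of -1.31 (SE = 0.112, FDR = 1.24e-08). Kif2c (ENSMUSG00000028678, chromosome 4, 117159639 to 117182639), which takes microtubules apart at centromeres and so corrects wrong attachments, had 8.27 and 7.24 CPM under DMSO and 3.06 and 3.30 CPM under GSI, a log2 change of -1.28 (SE = 0.13, FDR = 1.31e-07). For all 3 of these genes the GSI libraries lay below the DMSO libraries without overlap, as they did for 34.8% of all tested genes. The plus-end motors Kif18a and Kif18b were the least abundant of this group in CPM. Kif18a (ENSMUSG00000027115, chromosome 2, 109280738 to 109341747), which damps the movements of chromosomes at the spindle equator, had 126 and 182 counts under DMSO and 62 and 75 counts under GSI, a log2 change of -1.13 (SE = 0.179, FDR = 3.64e-05). Kif18b (ENSMUSG00000051378, chromosome 11, 102905529 to 102925124), which shortens astral microtubules, had 186 and 278 counts under DMSO and 77 and 80 counts under GSI, a log2 change of -1.53 (SE = 0.159, FDR = 1.83e-07).

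The group of the central spindle and of cytokinesis held the largest change. Kif20a (ENSMUSG00000003779, chromosome 18, 34624613 to 34633277), which brings the chromosomal passenger complex to the central spindle, had 15.7 CPM in each DMSO library and 4.05 and 4.54 CPM under GSI. Its log2 change of -1.87 (SE = 0.108, FDR = 5.67e-11) was a 3.65-fold lower level, and 189 of the 13211 tested genes fell further. Kif14 (ENSMUSG00000041498, chromosome 1, 136466343 to 136531511), which works with citron kinase in the midbody, had 178 and 261 counts under DMSO and 62 and 74 counts under GSI, a log2 change of -1.65 (SE = 0.167, FDR = 1.24e-07). The GSI libraries of both genes lay below the DMSO libraries without overlap, as did those of 34.8% of all tested genes. Kif23 (ENSMUSG00000032254, chromosome 9, 61915905 to 61946774), the motor subunit of centralspindlin, was the most abundant mitotic kinesin and had 35.3 and 32.4 CPM under DMSO and 14.9 and 14.2 CPM under GSI, a log2 change of -1.22 (SE = 0.0846, FDR = 7.17e-10). Kif20b (ENSMUSG00000024795, chromosome 19, 34922361 to 34975745), which is needed to complete cytokinesis, had 9.13 and 8.87 CPM under DMSO and 4.57 and 3.89 CPM under GSI, a log2 change of -1.09 (SE = 0.12, FDR = 3.99e-07).

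**Figure D3:**
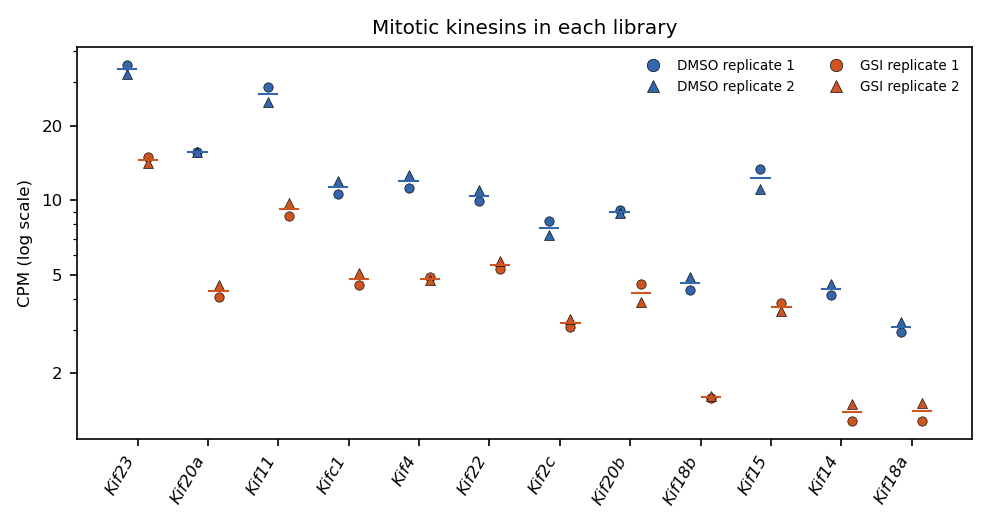
The y axis gives the CPM of the 12 mitotic kinesins on a log scale, by library, with circles for replicate 1, triangles for replicate 2 and a line at the mean of each group (n = 2). In every gene both GSI libraries lie below both DMSO libraries, from Kif23 at 35.3 and 32.4 CPM against 14.9 and 14.2 CPM to Kif18a at 2.93 and 3.21 CPM against 1.28 and 1.52 CPM.

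The 12 mitotic kinesins lay between the 1.44th and the 5.14th percentile of the log2 fold changes of all tested genes. The GSI libraries of all 12 lay below their DMSO libraries without overlap, as did those of 34.8% of the tested genes, and 11 of the 12 had a log2 change below -1, against 4.61% of tested genes. The replicates were close: the coefficient of variation between the 2 replicates of a group was at most 13.4% under DMSO (Kif15) and 11.9% under GSI. A fold change threshold in addition to the FDR, a log2 fold change below -1.5, was passed by 5 of the 12 (Kif11, Kif14, Kif15, Kif18b and Kif20a) and by 2.17% of all tested genes. No member had a log2 change above 1.5, which with the FDR was reached by 0.742% of tested genes. Kif11 and Kif18b lay near the lower threshold, and with 1 library left out in turn Kif11 ranged from -1.64 to -1.44 and Kif18b from -1.61 to -1.43, while Kif14, Kif15 and Kif20a stayed below -1.5 (-1.55 at most). The size of the change followed neither level nor length closely. Across the 12 genes, which share the 4 libraries, Pearson's r of the log2 fold change was -0.02 with the log2 mean CPM and -0.12 with the log2 exon length (Spearman's rho -0.19 and -0.10), as a description. In order of level per kilobase of exon under DMSO, the 12 ran from Kif23 (4.28 CPM per kb) through Kif20a (3.62), Kif11 (3.60), Kifc1 (3.30), Kif4 (2.17), Kif22 (2.13), Kif2c (1.78), Kif18b (1.29), Kif20b (1.29), Kif15 (1.11) and Kif14 (0.422) to Kif18a (0.312 CPM per kb). The libraries of 4 neighbouring pairs in this order overlapped, namely Kif20a with Kif11, Kif11 with Kifc1, Kif4 with Kif22 and Kif18b with Kif20b.

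Together the mitotic kinesins had 153 and 149 CPM under DMSO and 57.9 and 59.4 CPM under GSI. The 33 others had 823 and 820 CPM under DMSO and 835 and 789 CPM under GSI. Their sum includes Kif1c, which rose from 206 and 227 to 285 and 261 CPM. By contrast, 10 of the 22 tested others fell (21.9% of all tested genes did). Of all kinesin counts, mitotic kinesins took 15.7% (95% Wilson interval 15.4% to 16.1%) and 15.4% (15.1% to 15.7%) in DMSO libraries and 6.48% (6.25% to 6.72%) and 7.00% (6.76% to 7.25%) in GSI libraries. The intervals cover counting error only. In such bulk samples, fewer cells in mitosis and less of these mRNAs per cell cannot be told apart.

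The kinesins outside the mitotic set were led by a few abundant transport motors. Kif1c (ENSMUSG00000020821, chromosome 11, 70700548 to 70731964), which carries vesicles and integrins and has been studied in macrophage podosomes, was the most abundant kinesin gene per kilobase of exon. It had 206 and 227 CPM under DMSO and 285 and 261 CPM under GSI, a log2 change of 0.34 (SE = 0.0746, FDR = 0.00116), and was the only member that rose in this test. Its GSI libraries lay above its DMSO libraries, a 1.26-fold difference, which held without overlap for 2 of the 22 tested others (Kif1c and Kif3c) and for 35.8% of all tested genes, while 13 of the 22 lay below without overlap, as did 34.8% of all tested genes. Kif5b (ENSMUSG00000006740, chromosome 18, 6201002 to 6242174), the widely expressed heavy chain of conventional kinesin, had 158 and 151 CPM under DMSO and 136 and 131 CPM under GSI, a log2 change of -0.21 (SE = 0.0696, FDR = 0.0224). That call did not hold in 2 of the 4 fits that left out 1 library: FDR = 0.178 without DMSO replicate 1 and 0.0912 without GSI replicate 2. The other heavy chains did not pass the test. Kif5c had 33.6 and 28.9 CPM under DMSO and 36.0 and 33.3 CPM under GSI (log2 change 0.15, FDR = 0.169, but 0.26 and FDR = 0.0463 without DMSO replicate 1 and 0.04 and FDR = 0.808 without DMSO replicate 2), and Kif5a had 4.79 and 5.31 against 4.84 and 4.37 CPM (log2 change -0.14, FDR = 0.428).

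None of the 3 motor subunits of heterotrimeric kinesin passed the test. Kif3b (ENSMUSG00000027475, chromosome 2, 153291413 to 153333390) had 110 and 111 CPM under DMSO and 110 and 109 CPM under GSI, a log2 change of -0.02 (SE = 0.0686, FDR = 0.851). Kif3c had 30.1 and 28.0 CPM under DMSO and 33.4 and 32.4 CPM under GSI (log2 change 0.18, FDR = 0.0699), and Kif3a, the partner subunit common to Kif3b and Kif3c, had 8.39 and 9.41 against 11.5 and 9.38 CPM (log2 change 0.23, FDR = 0.116). The value of Kif3a rested on single libraries, being 0.07 (FDR = 0.706) without GSI replicate 1, 0.15 (FDR = 0.424) without DMSO replicate 1 and 0.37 (FDR = 0.0107) without GSI replicate 2. Per exon length, Kif3b was 6.05 to 8.33 times as abundant as Kif3a in the 4 libraries. Kif2a, which removes tubulin from microtubule ends in interphase and at spindle poles, had 26.6 and 22.8 CPM under DMSO and 27.7 and 23.6 CPM under GSI (log2 change 0.06, FDR = 0.672). Its groups overlapped, unlike those of its mitotic relative Kif2c. Kif1bp, which binds kinesins and is not a motor, had 27.4 and 26.1 against 29.5 and 27.1 CPM (log2 change 0.08, FDR = 0.442).

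Of the vesicle and endosome motors of the Kif1, Kif13 and Kif16 groups, 3 of 6 fell, 1 (Kif1c, above) rose and 2 did not pass the test, beside 21.9% lower and 19.0% higher among all tested genes. Kif13b (ENSMUSG00000060012, chromosome 14, 64647265 to 64809617) had 25.4 and 25.3 CPM under DMSO and 15.4 and 14.2 CPM under GSI, a log2 change of -0.77 (SE = 0.0856, FDR = 4.19e-07). Kif13a (ENSMUSG00000021375, chromosome 13, 46749087 to 46929867), which moves endosomal cargo such as the mannose-6-phosphate receptor, had 33.7 and 31.6 CPM under DMSO and 22.8 and 22.5 CPM under GSI, a log2 change of -0.53 (SE = 0.0796, FDR = 2.20e-05). These relatives thus lay lower in every GSI library, as did 34.8% of all tested genes, with replicates that were close. Kif1b (ENSMUSG00000063077, chromosome 4, 149176319 to 149307693), a motor of mitochondria and of synaptic vesicle precursors, had 56.5 and 49.9 CPM under DMSO and 44.1 and 42.1 CPM under GSI, a log2 change of -0.30 (SE = 0.0783, FDR = 0.00423), but its call did not hold without DMSO replicate 1 (-0.21, FDR = 0.0954). Kif16b, an early endosome motor, had 35 and 34.9 CPM under DMSO and 31.5 and 30.9 CPM under GSI (log2 change -0.16, FDR = 0.0874).

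Among the remaining motors, Kifc3 (ENSMUSG00000031788, chromosome 8, 95099828 to 95202812), a minus-end motor, had 15.1 and 13.8 CPM under DMSO and 7.88 and 9.74 CPM under GSI, a log2 change of -0.71 (SE = 0.108, FDR = 2.52e-05). Kif21b (ENSMUSG00000041642, chromosome 1, 136131389 to 136177998), which limits microtubule growth, had 27.8 and 28.1 CPM under DMSO and 20.7 and 19.8 CPM under GSI, a log2 change of -0.47 (SE = 0.0805, FDR = 0.0001). Kif19a (ENSMUSG00000010021, chromosome 11, 114765388 to 114790739), known for control of cilium length, had 10.2 and 11 CPM under DMSO and 7.47 and 7.05 CPM under GSI, a log2 change of -0.55 (SE = 0.105, FDR = 0.000261). The GSI libraries of these 3 genes all lay below the DMSO libraries, as did those of 34.8% of all tested genes. The 2 largest changes outside the mitotic set were in weakly expressed genes of cilia and centrioles. Kif24 (ENSMUSG00000028438, chromosome 4, 41390745 to 41464887), a motor of the mother centriole that restrains cilium formation in cycling cells, had 133 and 172 counts under DMSO and 77 and 75 counts under GSI, a log2 change of -0.97 (SE = 0.171, FDR = 0.00012). Kif7 (ENSMUSG00000050382, chromosome 7, 79698098 to 79715720), which acts in Hedgehog signaling at the cilium tip, had 48 and 82 counts under DMSO and 33 and 30 counts under GSI, a log2 change of -1.0 (SE = 0.256, FDR = 0.00373). The call of Kif7 was lost without DMSO replicate 2 (-0.79, FDR = 0.0816) and under DESeq2 (FDR = 0.0678).

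Kifc5b is a near copy of Kifc1 on the same chromosome, and 38.6% of the 50-base words of Kifc1 transcripts occurred in those of Kifc5b (36.6% of those of Kifc5b in Kifc1), so the division of reads between them is uncertain. Kifc5b (ENSMUSG00000024301, chromosome 17, 26917091 to 26932583) had 90 and 109 counts under DMSO and 75 and 59 counts under GSI, a log2 change of -0.54 (SE = 0.2, FDR = 0.0352). That call was lost in 3 of the 4 fits that left out 1 library (FDR = 0.139 without DMSO replicate 1, 0.0677 without DMSO replicate 2 and 0.239 without GSI replicate 2) and under DESeq2 (FDR = 0.215). The members left among the tested others were Kif9, Kifc2 and Kif1a. Kif9 had 233 and 355 counts under DMSO and 183 and 261 counts under GSI (log2 change -0.37, FDR = 0.0512), just outside the threshold, and its log2 change was -0.63 (FDR = 0.000531) without GSI replicate 2, -0.46 (FDR = 0.0145) without DMSO replicate 1 and -0.15 (FDR = 0.47) without GSI replicate 1. Kifc2 and Kif1a had 39 to 102 counts in each library, and their groups overlapped. The 11 members that did not pass the filter had at most 4 counts in any library. Of these, Kif17 had 1 to 4 counts, Kif27 2 or 3, and Kif21a, Kif6 and Kif26b at most 2, while Kif12, Kif26a, Kif2b, the pseudogenes Kif22-ps and Kif4-ps and the antisense gene Kif16bos had 0 counts in all 4 libraries.

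**Figure D4:**
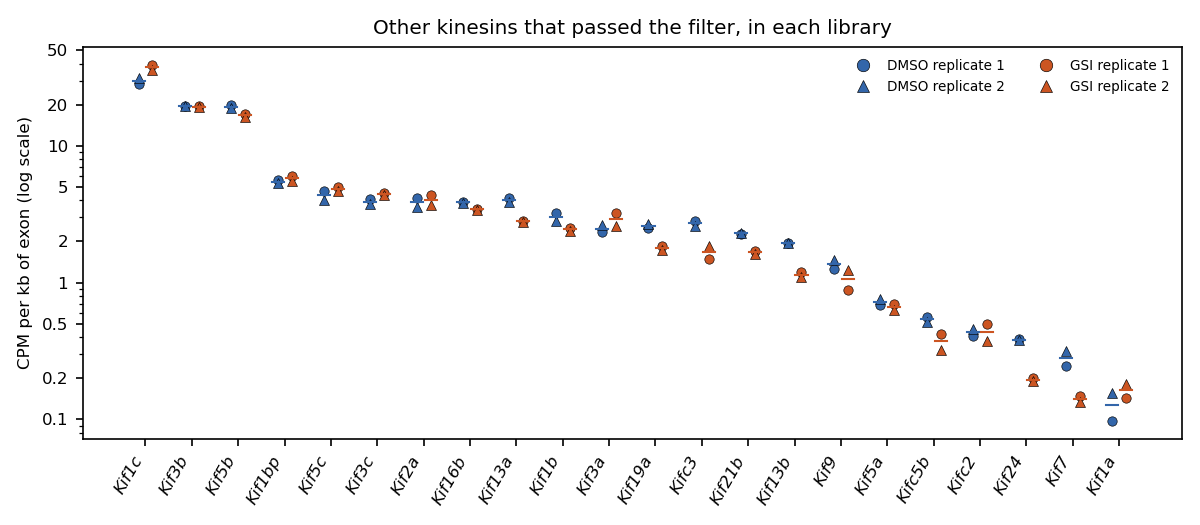
The y axis gives the level of the 22 tested kinesins outside the mitotic set as CPM per kilobase of exon on a log scale, by library (circles replicate 1, triangles replicate 2, lines the mean of 2). Kif1c is highest, at 28.3 and 31.2 CPM per kb under DMSO and 39.2 and 35.9 under GSI, and Kif1a and Kif7 are lowest.

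Levels in this set spanned a wide range. Under DMSO, Kif1c (29.7 CPM per kb of exon), Kif3b (19.6) and Kif5b (19.3) stood above all other kinesins, the next being Kif1bp (5.47), and the libraries of Kif3b and Kif5b overlapped. Kif23, the highest mitotic kinesin at 4.28 CPM per kb, was close to Kif5c (4.38). The strand setting of the counting is not given in the sources used here, so reads of a kinesin and of a gene on the other strand may not be told apart, and genes with exons opposite other genes were listed. They were 4 of the 12 mitotic and 7 of the 22 tested other kinesins, so that 8 mitotic kinesins have no such exons. Among them were Kif20a, where 1271 of 4338 exon bases lie opposite Cdc23 (522 and 629 counts under DMSO, 552 and 491 under GSI), Kif4, where 832 of 5514 lie opposite Pdzd11 (1541 and 1780, 2217 and 1957 counts), Kif2a (1229 of 6393 opposite Dimt1) and Kif3c (2617 of 7406 opposite 1110002L01Rik). The antisense gene Gm17036, opposite 142 exon bases of Kif5b, had 9 and 12 counts under DMSO and 1 and 0 counts under GSI. Other weakly counted genes opposite list genes were also lower under GSI: Gm5577, opposite Rab7, had 65 and 70 against 2 and 2 counts, Gm26768, opposite Dctn6, 33 and 18 against 2 and 0, Gm10143, opposite Fen1, 26 and 27 against 3 and 0, and Gm17111, opposite Dync1h1, 14 and 14 against 1 and 0. Such genes did not all differ, since Gm31749, opposite Kif22, had 7 and 6 against 6 and 5 counts and 1110002L01Rik had 114 and 132 against 139 and 155. The GSI libraries thus stood apart in the counts of some opposite-strand genes, and the part of this in the kinesin results was not tested.

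To place the kinesins beside the proteins they work with, 20 partners and regulators of mitotic kinesins were examined. Of these 18 fell, 1 rose and 1 did not pass the test, beside 21.9% lower and 19.0% higher among all tested genes. Their median log2 change was -1.10. Cenpe, a mitotic kinesin of the kinetochore that does not carry the Kif name, had 32.1 and 30.5 CPM under DMSO and 11.5 and 12 CPM under GSI (log2 change -1.41, SE = 0.0856, FDR = 1.13e-10). Its fall thus lay within the range of the 12. Prc1, which bundles the central spindle and recruits Kif4, had 27.4 and 24.7 against 9.0 and 10.2 CPM (log2 change -1.44). Racgap1, the partner of Kif23 in centralspindlin, had a smaller log2 change, from 28.1 and 25.8 to 16.3 and 17.5 CPM (-0.67), and the ratio of Kif23 to Racgap1 per exon length came to 1.12 and 1.13 under DMSO, but to 0.820 and 0.727 under GSI. The 3 largest changes of the list were those of Hmmr (-1.74), Anln (-1.53) and Plk1 (-1.51), a spindle protein, a scaffold of the cleavage furrow and the kinase that primes many of these motors.

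The partner that rose was Tpx2, which targets Kif11 to spindle microtubules and activates Aurora A. Tpx2 had 45.9 and 48.4 CPM under DMSO and 66.2 and 59.2 CPM under GSI, a log2 change of 0.41 (SE = 0.0767, FDR = 0.000227). Per exon length, the ratio of Kif11 to Tpx2 came to 0.391 and 0.324 under DMSO, but to 0.0818 and 0.103 under GSI. Aurka itself fell (log2 change -0.80, FDR = 1.25e-06).

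Genes of the cell cycle without motor function were mostly lower too, where 21.9% of all tested genes were lower and 19.0% higher. Of 20 G2/M-phase genes 19 fell and 1 rose (median -1.13), led by Cenpf (-1.69), Ccnb2 (-1.55) and Cdc25c (-1.51). The exception, named after its value was seen, was Pttg1, the securin that holds back separase, with 20.7 and 21.6 CPM under DMSO and 34.3 and 32.5 CPM under GSI (log2 change 0.66, FDR = 1.39e-06). Of 20 S-phase genes 18 fell and 2 did not pass the test, with a median of -0.74, led by Rrm2 (-1.57), Uhrf1 (-1.12) and Mcm7 (-1.0). For each 1000 counts of the G2/M list, a sum in which Mki67 (log2 change -0.61) is the most abundant gene, mitotic kinesins had 224 and 220 counts under DMSO and 144 and 149 counts under GSI. These lists were written with earlier results of these data known, and no test compared them with the kinesins.

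The partners of the transport motors were examined in the same way. Of 20 light chains and adaptors, 18 were tested, 7 rose (19.0% of all tested genes did), 2 fell (21.9% of all tested genes did) and 9 did not pass the test, with a median log2 change of 0.18. Klc1, a light chain of Kif5 motors, had 62.6 and 62.1 CPM under DMSO and 64.0 and 52.7 CPM under GSI (log2 change -0.10, FDR = 0.383), and Kifap3, which joins Kif3 motors to cargo, had 22.5 and 21.2 against 20.4 and 22.2 CPM (log2 change -0.04, FDR = 0.762). The largest changes were rises of Mapk8ip1 (1.39, on 7 to 26 counts a library), Borcs5 (0.43), a subunit of the complex that couples lysosomes to kinesins, and Klc2 (0.40). Of 19 tested genes of dynein and dynactin, the motor that moves cargo in the opposite direction, 3 rose, 2 fell and 14 did not pass the test (median 0.05), with the largest changes in Dynll1 (0.38), Ndel1 (-0.30) and Nde1 (-0.30). Of 15 tested tubulins, the building blocks of the track, 2 fell, 1 rose and 12 did not pass the test (median -0.04). Tubb6 had 188 and 199 CPM under DMSO and 101 and 98.8 CPM under GSI (log2 change -0.96, FDR = 1.43e-09), Tuba4a had a log2 change of 0.48 (FDR = 3.70e-05), and Tubb3, with the third largest value, did not pass the test (-0.40, FDR = 0.266).

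**Figure D5:**
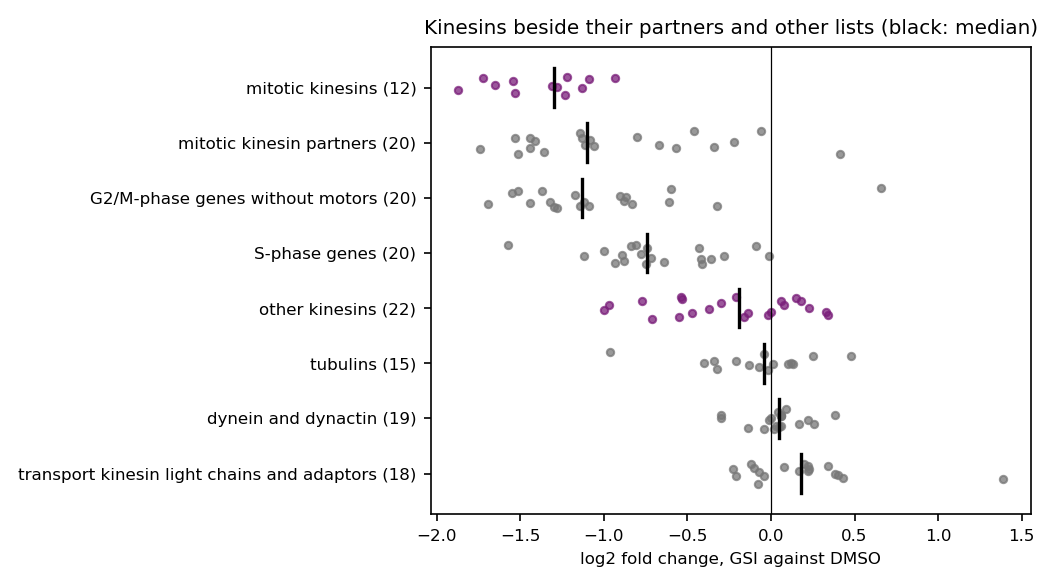
Each point is a tested gene, the x axis gives its log2 fold change, GSI against DMSO, and black bars mark the median of each list, with the number of tested genes in brackets. Mitotic kinesins (median -1.30) lie beside their partners (-1.10) and G2/M-phase genes (-1.13), while the other kinesins (-0.19), tubulins (-0.04), dynein and dynactin (0.05) and kinesin adaptors (0.18) lie near 0.

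The cells were checked against marker lists. The 8 macrophage markers summed to 12300 and 12500 CPM under DMSO and 9490 and 10400 CPM under GSI. Of these, 6 fell, 1 rose (Mertk, log2 change 0.64, FDR = 1.62e-06) and 1 did not pass the test (median -0.36). Among all tested genes, 21.9% were lower and 19.0% higher. Markers of neutrophils and their precursors summed to 0.511 to 0.931 CPM, with Elane, Prtn3 and Retnlg at 0 counts in all libraries. Those of mast cells and basophils were at 0 counts throughout, and lists for dendritic, B, T and NK, erythroid and stromal cells summed to at most 2.64 CPM in any library. The stromal list summed to 1.02 and 1.06 CPM under DMSO and 0.476 and 0.668 CPM under GSI, and its 1 tested gene, Cxcl12, fell (log2 change -0.84, FDR = 0.0257). Progenitor markers summed to 12.6 and 13.8 CPM under DMSO and 5.52 and 5.49 CPM under GSI, and 1 of the 4 tested fell (Cd34, from 9.92 and 11 to 2.36 and 2.69 CPM), 1 rose (Kit, log2 fold change 0.83, FDR = 0.0233) and 2 did not pass the test. Cd34, Cxcl12 and 6 macrophage markers went in the direction of the mitotic kinesins, while Mertk and Kit went the other way. The part of these markers in the kinesin result was not tested.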

How the data were processed

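RNA-seq counts of LPS/IC-activated BMMs treated with DMSO or GSI were analysed. Per the study's methods, the authors made stranded poly(A) libraries (TruSeq), sequenced them on a NextSeq, trimmed adapters with Trimmomatic, aligned reads with STAR to mm10 and used HTSeq to count the reads of each gene. The submitters' processing notes name STAR 2.5.0a and list mm9 beside mm10. The HTSeq mode and strand setting are not given in the sources used here. The deposited values are unnormalized counts of reads, by gene and by run, in 16 columns matched to samples by title. The spread among the 4 runs of each replicate was close to pure counting noise (chi-square per degree of freedom 1.01 to 1.03, against 14.7 and 16.6 between replicates) and were summed.

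The main test was edgeR 4.0.16 (R 4.3.3; glmQLFit and glmQLFTest, TMM, filterByExpr, group as the only factor) with Benjamini-Hochberg adjustment over 13211 genes. CPM used TMM-scaled library sizes, and CPM per kb the merged exon length of GENCODE M21 (GRCm38, the build also called mm10), which held 98.95% of the gene IDs. In counts simulated for 13019 tested genes from these libraries, 88.0% of 50 genes lowered to a fold of 0.5 and 0.0468% of unchanged genes were called. Alternatives were a DESeq2 1.42.0 fit, RLE factors, no factors, other filters, a block for the replicate number, each run entered as a sample, and leaving out each library. The members and lists were chosen with earlier results of these data known. Genes named were the 12 mitotic kinesins, each other member with an FDR under 0.05 or among the 8 highest per kb, the 3 largest changes of each list, and Cenpe, Racgap1, Prc1, Tpx2, Kifap3 and Klc1. Others, such as Kif5a, Kif3a, Kif9, Aurka, Mki67 and Pttg1, were named after their values were seen. A planned search of protein sequences was not run.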

Additional observations from a re-analysis of the deposited data

How the results depend on the processing

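All 12 mitotic kinesins were called lower under each of the 11 alternatives, and their median log2 fold change lay between -1.36 and -1.29. Of the other kinesins, 8 to 12 were called lower. The number called higher was 1 in the main analysis, 3 with the replicate number as a block, 4 with the 16 runs as separate samples, and 1 to 2 when a library was left out. With the runs as separate samples, 3896 of all genes were called higher, but runs are not replicates, so these counts rest on more samples than there were libraries. The replicate numbers share only a number in the labels (correlation of the deviations of same-numbered libraries 0.155 across 13211 genes), and under the replicate block Kif3c (FDR = 0.0286), Kif16b (0.0459), Kif3a (0.043) and Kif9 (0.00654) were also called (Kif3c and Kif3a higher), while 3314 genes were lower and 3130 higher in all. Kifc2, with a log2 fold change of 0.00, changed sign to -0.01 with RLE, with no normalization factors and with the block, to about -0.00 (-0.0) with at least 10 counts and with separate runs, to -0.07 without DMSO replicate 1 and to -0.21 without GSI replicate 1, and was 0.19 without GSI replicate 2. Kif2a (0.06) changed to -0.06 without DMSO replicate 2 and to -0.07 without GSI replicate 1, and was 0.17 without GSI replicate 2. Neither was called under any setting. Kif9 passed the threshold under 8 alternatives (FDR = 0.0485 with RLE). The causes were not tested. Where a library is left out, the lone library of its group is assumed to vary like the others. Genes under about 100 counts a library (Kif7, Kifc5b, Kif1a, Kifc2) had standard errors of 0.2 or more with 2 libraries a group.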
